A study of Mus musculus with 20 samples.

Results

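The genes described here encode 10 transcription factors that mark naive and memory T cells: Tcf7, Lef1, Bach2, Klf2, Klf3, Foxo1, Foxp1, Satb1, Ets1 and Myb. They were chosen by gene symbol from a count table of 22048 protein-coding genes. All 10 were found, and all 10 were among the 13072 genes that passed a filter on low counts and were tested. Their RNA was followed through 20 RNA-seq libraries of mouse CD4+ T cells, with and without the histone methyltransferase DOT1L.

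As background, these factors hold T cells in a resting, recirculating and long-lived state. Tcf7 encodes TCF1 and Lef1 encodes LEF1, paired HMG-box factors at the end of the Wnt pathway that bind TLE co-repressors or beta-catenin. Foxo1 encodes the forkhead factor FOXO1, which antigen receptor and growth factor signals drive out of the nucleus through the kinase AKT. In resting cells FOXO1 switches on Klf2, whose zinc finger product sustains the homing receptors of lymph node traffic. Bach2 restrains effector genes by occupying AP-1 sites, Foxp1 enforces quiescence, and SATB1 organises chromatin in thymocytes and T cells. Strong activation lowers many of these genes, and recirculating memory cells express many of them again. DOT1L is the enzyme that methylates histone H3 within the globular core, over the bodies of transcribed genes.

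The KO mice carried a CD4-driven Cre recombinase and loxP-flanked Dot1l alleles (CD4Cre+DOT1L FL/FL), and the WT mice carried the same Cre without these alleles. This Cre deletes in cells that express CD4, a stage thymocytes pass through, so loss of the gene precedes the mature cell. Cells came from spleen and peripheral lymph nodes. KO naive and WT naive libraries are the starting population, for which the labels describe pre-enrichment and no sort. KO Th1, WT Th1, KO Th2 and WT Th2 cultures were stimulated for 4 days through CD3 and CD28 by immobilised antibodies (1 µg/ml of each), then sorted as live CD4+ cells. Th1 medium held IL-2 and IL-12 at 10 ng/ml each and anti-IL-4 at 10 µg/ml. Th2 medium held IL-2 and IL-4 at 10 ng/ml each and anti-IFN-g at 10 µg/ml. Further WT Th1 and WT Th2 cultures contained the DOT1L inhibitor SGC0946 or the inactive comparison compound SGC0649, both at 1 µM. Each of the 10 groups had 2 libraries. The labels do not say that these were separate animals, so the p-values measure the spread between libraries, which may be technical. Ages of the mice are not in the labels.

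Each library held between 9704500 and 13025588 protein-coding counts. Replicates of every group differed by more than counting error, with a chi-square per degree of freedom of 2.20 to 18.4. Dot1l RNA, counted over all exons, was lower in KO than in WT in Th1 cultures (log2 fold change -0.39 ± 0.11 SE, adjusted p = 0.00841, edgeR) and Th2 cultures (-0.60 ± 0.11, adjusted p = 0.000269). In naive cells it did not pass the test (-0.10 ± 0.11, adjusted p = 0.544), and in Th1 the call was lost without KO Th1 replicate 1 or WT Th1 replicate 2 (adjusted p = 0.0893 and 0.0605). All 13 measured T cell marker genes were present in every group. Bulk RNA does not separate fewer cells of a type from less RNA per cell.

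On GRCm38, Tcf7 lies on chromosome 11 (52252371 to 52283014, minus strand), Lef1 on chromosome 3 (131110471 to 131224356, plus) and Bach2 on chromosome 4 (32238804 to 32586108, plus). Klf2 lies on chromosome 8 (72319033 to 72321656, plus), Klf3 on chromosome 5 (64803388 to 64832901, plus), Foxo1 on chromosome 3 (52268336 to 52353221, plus) and Foxp1 on chromosome 6 (98925338 to 99522721, minus). Satb1 lies on chromosome 17 (51736187 to 51833290, minus), Ets1 on chromosome 9 (32636221 to 32757820, plus) and Myb on chromosome 10 (21124936 to 21160905, minus).

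Promoter windows are shown for Bach2 and Klf2, the members that were lowest in KO Th1 relative to WT Th1, and for Myb, which was highest in KO Th2 relative to WT Th2. Each runs 5′ to 3′ on the strand of its gene, from 250 bases before to 50 after the RefSeq start on GRCm38.p6. Capitals mark matches to motifs searched on both strands. The Bach2 window at chr4:32417185-32417484 (+) lies inside the annotated gene.
Bach2: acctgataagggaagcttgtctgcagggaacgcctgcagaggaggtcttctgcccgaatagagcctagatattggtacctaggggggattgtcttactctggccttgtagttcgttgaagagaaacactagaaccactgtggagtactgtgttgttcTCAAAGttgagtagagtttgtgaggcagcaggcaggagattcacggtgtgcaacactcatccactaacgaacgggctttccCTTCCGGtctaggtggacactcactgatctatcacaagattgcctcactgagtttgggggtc
The Klf2 window is at chr8:72318812-72319111 (+).
Klf2: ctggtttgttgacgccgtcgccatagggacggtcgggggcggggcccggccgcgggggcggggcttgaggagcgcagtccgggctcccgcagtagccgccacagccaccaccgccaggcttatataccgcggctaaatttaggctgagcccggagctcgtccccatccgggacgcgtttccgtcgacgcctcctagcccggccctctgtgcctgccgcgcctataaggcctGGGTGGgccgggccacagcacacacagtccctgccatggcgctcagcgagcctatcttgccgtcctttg
The Myb window is at chr10:21160935-21161234 (-).
Myb: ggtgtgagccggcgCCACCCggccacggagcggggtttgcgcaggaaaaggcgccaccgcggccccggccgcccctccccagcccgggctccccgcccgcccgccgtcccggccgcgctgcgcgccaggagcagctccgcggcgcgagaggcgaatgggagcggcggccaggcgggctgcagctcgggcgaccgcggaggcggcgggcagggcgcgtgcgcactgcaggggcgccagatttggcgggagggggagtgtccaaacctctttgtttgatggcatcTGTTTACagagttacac

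In the Bach2 window TCAAAG is the reverse strand of CTTTGA, a letter pattern of TCF and LEF factors, and CTTCCGG is that of CCGGAAG, an ETS pattern. In Klf2, GGGTGG is the reverse strand of CCACCC, a KLF pattern that the Myb window holds on its own strand beside the forkhead pattern TGTTTAC. RefSeq windows matched 9 of the 10 members, Ets1 being the other, and gave 19 windows. CCACCC stood in 12 of these 19 and in 31.5% of all 32851 windows of the same length. CTTTGA stood in 3 (16% of all windows), TGTTTAC in 2 (3.65%), CCGGAAG in 2 (8.86%) and the MYB pattern AACNGTT in 1 (4.45%). TGAGTCA, the AP-1 pattern, was in none of the 19 and in 5.20% of all windows. Windows of 1 gene can overlap, and a match describes letters only.

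In naive WT cells the members spanned a wide range of RNA per length. In CPM, read counts scaled to library size, per kilobase of exon, Tcf7 stood at 732 and Klf2 at 473, followed by Ets1 at 206. Foxo1 stood at 71.1, Lef1 at 48.0, Satb1 at 46.7 and Myb at 38.4 CPM per kilobase. Foxp1 at 24.9, Bach2 at 22.5 and Klf3 at 16.7 were lowest. Over the 10 group means, Klf2 varied most, 119-fold between KO Th1 at 7.35 CPM and WT naive at 874 CPM. Tcf7 varied 70.6-fold, Klf3 47.5-fold, Bach2 22.3-fold, Foxp1 20.8-fold and Myb 11.9-fold. Lef1 at 6.08-fold, Foxo1 at 5.57-fold, Satb1 at 4.14-fold and Ets1 at 2.46-fold varied least.

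**Figure D1:**
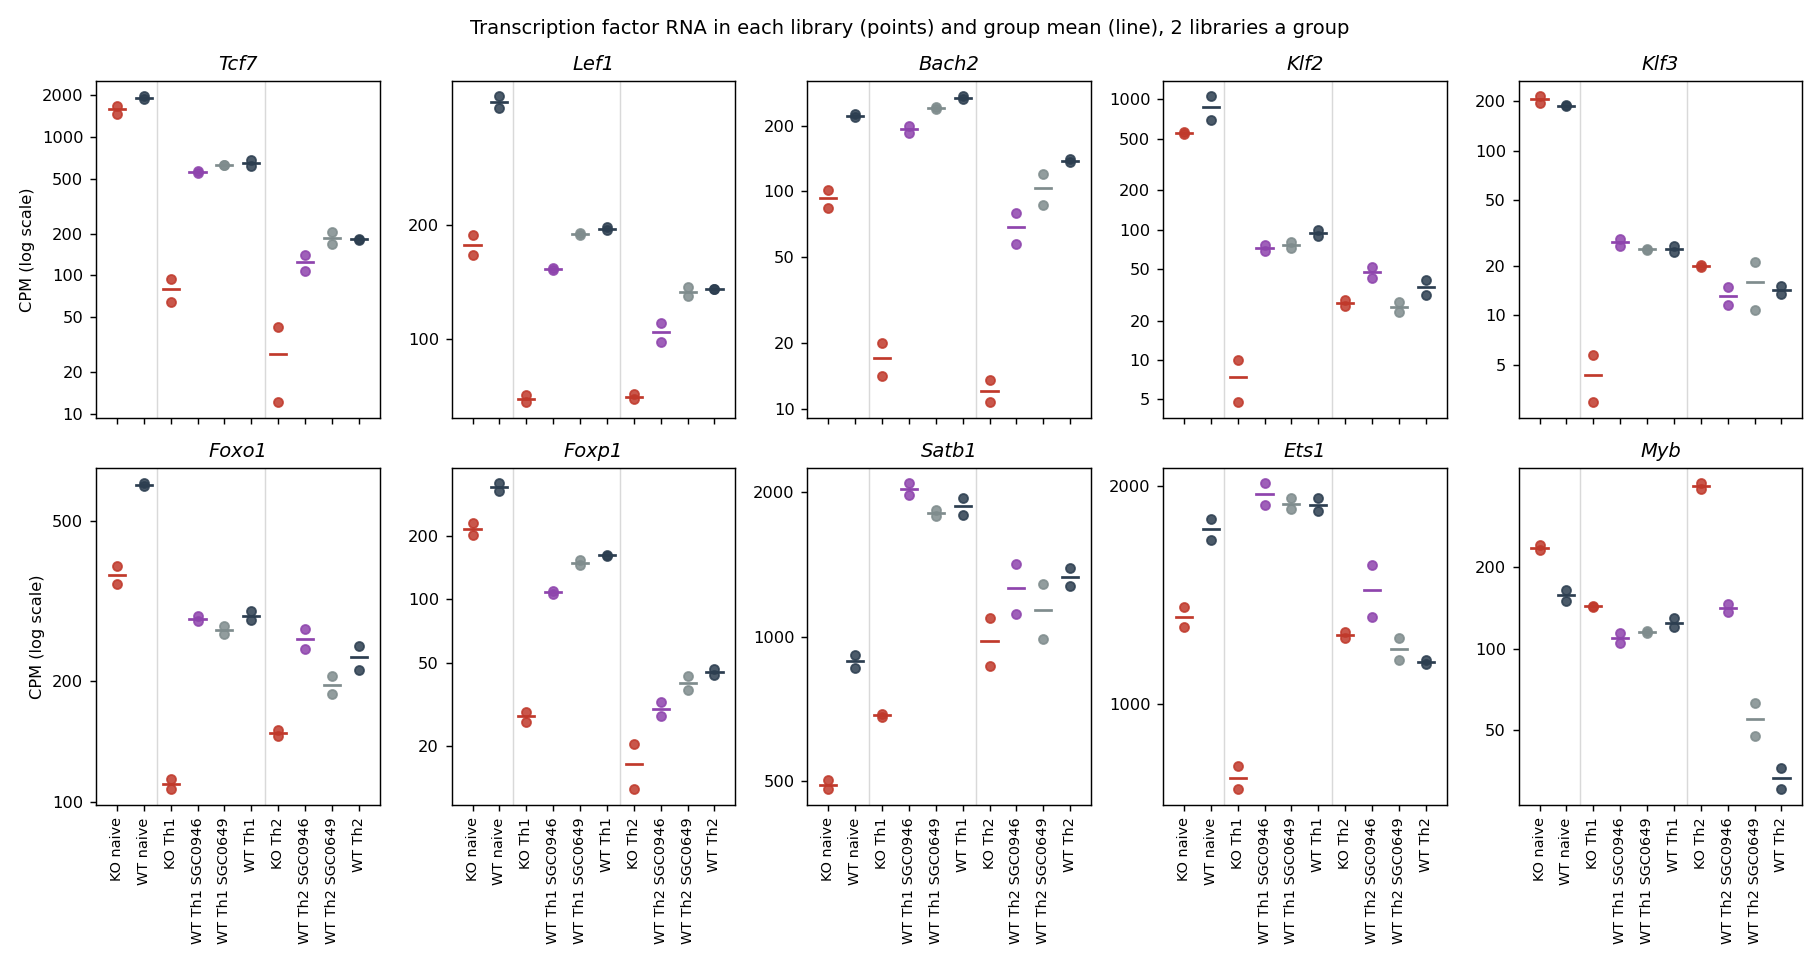
RNA of the 10 genes in CPM on log scales, with 2 points per group for the libraries and a line for their mean. KO Th1 was the lowest group for Klf2, Klf3, Foxo1, Lef1 and Ets1, and KO Th2 was the lowest for Tcf7, Bach2 and Foxp1 and the highest for Myb.

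Culture of WT cells lowered most of these genes. In WT Th1 cultures 7 of 10 were called lower than in WT naive cells and 1 higher, where 33% and 34.3% of all tested genes were called lower and higher. In WT Th2 cultures 9 were lower and 1 higher, against 35% and 36.9% of all tested genes. A gene was called at an adjusted p under 0.05 in edgeR's quasi-likelihood test. The members' median log2 fold change was -1.08 in Th1 and -1.94 in Th2, beside 0.00 and 0.03 over all tested genes. Both comparisons use the same WT naive libraries. The cultures were sorted and the naive cells were not, and markers of other cells also moved, not all in the members' direction. Summed myeloid and dendritic markers ran from 35.5 to 38.6 CPM in WT Th1 and from 40.2 to 45.1 CPM in WT Th2, against 337 to 448 CPM in WT naive, with 10 and 9 of 11 tested genes called lower. Clec9a and Itgam were at 0 in both cultures, and Itgam also in WT naive. Erythroid markers ran from 0.248 to 0.679 CPM in WT Th1 and from 0.639 to 0.724 CPM in WT Th2, against 200.1 to 314 CPM in WT naive, all 7 being called lower, with 5 of them at 0 in WT Th1 and 3 in WT Th2. Mitochondrial genes ran from 12110 to 12180 CPM in WT Th1 and from 13710 to 15410 CPM in WT Th2, against 18070 to 19770 CPM in WT naive. Handling stress genes summed to 1478 to 1610 CPM in WT Th1 and 1505 to 1516 CPM in WT Th2. WT naive held 3936 to 4471 CPM. Mast cell and basophil markers had higher sums, at 153 to 201 CPM in WT Th1 and 91.1 to 97.0 CPM in WT Th2. In WT naive they summed to 34.0 to 67.5 CPM. Of these 11 genes, 6 were called higher and 1 lower in WT Th1. In WT Th2 3 were called higher and 2 lower, beside 36.9% and 35% of all tested genes. Of 13 T cell markers, 6 were called higher and 1 lower in WT Th1, and 2 higher and 8 lower in WT Th2. The part of these lists in the members' values was not tested.

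The KLF genes were lowered most by culture. Klf2 had 99.3 and 88.7 CPM in WT Th1 and 31.3 and 41.3 CPM in WT Th2, against 693 and 1055 CPM in WT naive. Its log2 fold change over naive was -3.22 ± 0.23 in Th1 and -4.59 ± 0.25 in Th2 (adjusted p = 1.39e-08 and 4.37e-10). Klf3, a repressor of the same family, had 24.1 and 26.4 CPM in WT Th1 and 14.97 and 13.4 CPM in WT Th2, against 189 and 187 CPM in WT naive. For both genes the cultures lay far below naive cells with no overlap. Tcf7 had 679 and 623 CPM in WT Th1 and 182 and 182 CPM in WT Th2, against 1874 and 1971 CPM in WT naive. Its log2 fold change was -1.56 ± 0.32 in Th1 (adjusted p = 0.000578) and -3.40 ± 0.34 in Th2 (adjusted p = 6.29e-07). Lef1 (-1.11 ± 0.08 and -1.64 ± 0.08), Foxo1 (-1.08 ± 0.09 and -1.43 ± 0.09) and Foxp1 (-1.08 ± 0.13 and -2.93 ± 0.14) were also lower in both.

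Satb1, the chromatin organiser, ran the other way. It had 1948 and 1793 CPM in WT Th1 and 1389 and 1276 CPM in WT Th2, against 860.3 and 917 CPM in WT naive. Its log2 fold change was 1.07 ± 0.13 in Th1 and 0.58 ± 0.13 in Th2 (adjusted p = 2.03e-06 and 0.000791). Bach2 (0.27 ± 0.17, adjusted p = 0.159) and Ets1 (0.11 ± 0.09, adjusted p = 0.264) did not pass the test in Th1, and fell in Th2 by 0.69 and 0.61 on the log2 scale. Myb, a factor of progenitor and memory cells, was lower in Th2 (-2.24 ± 0.12, adjusted p = 3.47e-11) and slightly lower in Th1 (-0.34 ± 0.11, adjusted p = 0.0112). Leaving out WT naive replicate 1 or WT Th1 replicate 1 ended this Th1 call for Myb (adjusted p = 0.102 and 0.0928).

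Between the culture conditions, all 10 members were higher in WT Th1 than in WT Th2, where 26% of tested genes were called higher. Log2 differences ran from 0.35 ± 0.09 for Foxo1 to 1.91 ± 0.12 for Myb. Foxp1 (1.85 ± 0.14), Tcf7 (1.84 ± 0.32) and Klf2 (1.38 ± 0.23) came next. General T cell markers moved the same way, with 10 of 13 called higher in WT Th1 and none lower. Their sums were 8398 to 8545 CPM in WT Th1 and 5351 to 5656 CPM in WT Th2. Myeloid and dendritic markers did not, with 1 of 11 called higher and 3 lower. The part of these lists in the members' values was not tested. The calls for Foxo1, Klf3 and Satb1 were lost without WT Th2 replicate 2 (adjusted p = 0.0541, 0.0526 and 0.0502).

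**Figure D2:**
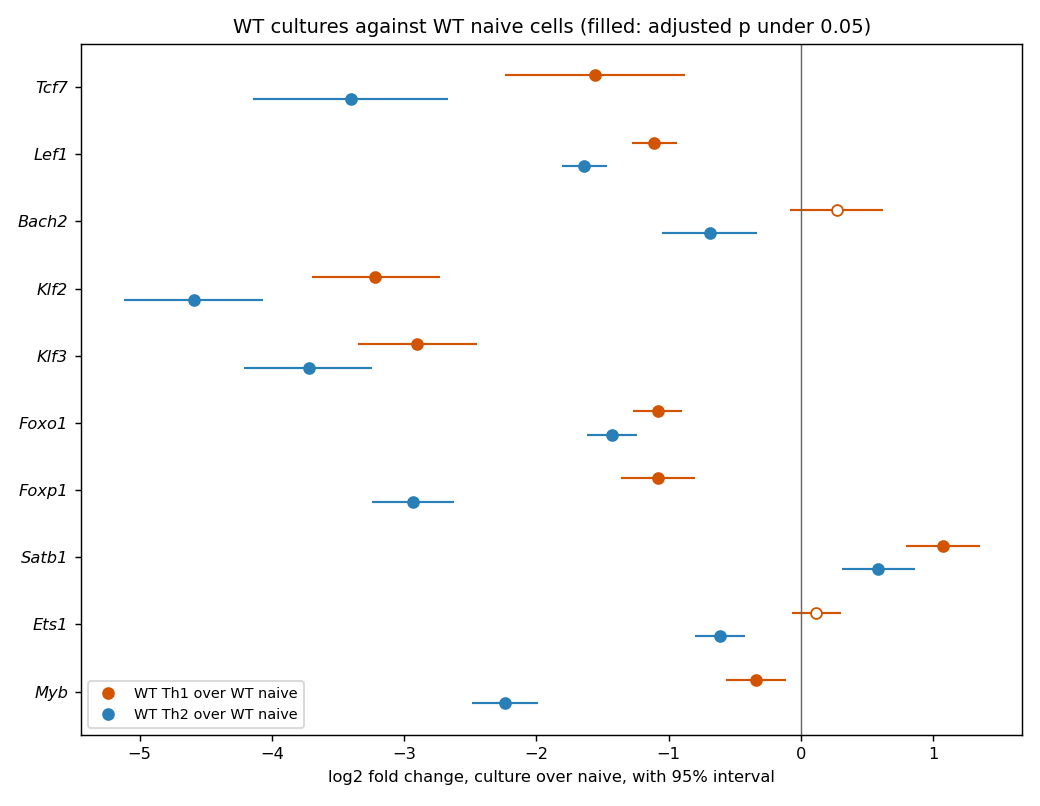
Log2 fold change of WT Th1 and WT Th2 cultures over WT naive cells with 95% intervals, filled where the adjusted p was under 0.05. Klf2 and Klf3 lay lowest in Th1, and Satb1 was to the right of 0 in both cultures.

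In naive cells, Dot1l deletion went with lower RNA of most members before any culture. In KO naive cells 7 members were called lower than in WT naive cells and 1 higher, where 12.4% and 16% of all tested genes were called lower and higher. The members' median log2 fold change was -0.66, and that of all tested genes 0.01. Bach2 had 84.2 and 102 CPM in KO naive, against 219 and 228 CPM in WT naive. Lef1 had 166 and 188 CPM in KO naive, against 406 and 437 CPM in WT naive. The KO and WT libraries did not overlap for either gene. The log2 fold change was -1.27 ± 0.17 for Bach2 (adjusted p = 9.04e-05) and -1.25 ± 0.08 for Lef1 (adjusted p = 4.71e-08).

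Satb1 had 480.1 and 502 CPM in KO naive, against 860.3 and 917 CPM in WT naive (-0.86 ± 0.13, adjusted p = 0.000212). Foxo1 had 348 and 387 CPM in KO naive, against 612 and 620.4 CPM in WT naive (-0.75 ± 0.09, adjusted p = 1.61e-05). Foxp1 (-0.66 ± 0.13, adjusted p = 0.00163) and Ets1 (-0.40 ± 0.09, adjusted p = 0.00308) were lower by smaller margins. Klf2 had 539 and 559 CPM in KO naive, against 693 and 1055 CPM in WT naive. Its log2 fold change of -0.67 ± 0.20 passed narrowly (adjusted p = 0.0261). The WT libraries were far apart. Leaving out WT naive replicate 2 ended the Klf2 call (-0.33, adjusted p = 0.319), as did leaving out KO naive replicate 1 or 2 (adjusted p = 0.149 and 0.0766).

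Tcf7 was not called in naive cells. It had 1481 and 1688 CPM in KO naive, against 1874 and 1971 CPM in WT naive, a log2 fold change of -0.28 that did not pass the test (95% interval -0.94 to 0.39, adjusted p = 0.542). In the libraries of the contrast alone, Tcf7 was called lower at -0.27 (adjusted p = 0.0413). Klf3 did not pass either, at 0.13 (interval -0.27 to 0.53). Myb was higher, at 241 and 231 CPM in KO naive, against 165 and 149.6 CPM in WT naive (0.59 ± 0.11, adjusted p = 0.000859). Summed markers of several other cell types were higher in the same libraries. Summed myeloid and dendritic markers ran from 565 to 1127 CPM in KO naive and from 337 to 448 CPM in WT naive, with 9 of 11 genes called higher, Itgam being at 0 in both. Erythroid markers ran from 323 to 1340 CPM in KO naive and from 200.1 to 314 CPM in WT naive. Summed T cell markers were lower, from 5062 to 5709 CPM in KO naive and from 7093 to 7238 CPM in WT naive. B cell markers ran from 133 to 142 CPM in KO naive and from 88.3 to 90.4 CPM in WT naive. Only 2 of these 10 genes were called higher, near the 16% of all tested genes, and none lower. Handling stress genes ran from 5644 to 5912 CPM in KO naive and from 3936 to 4471 CPM in WT naive, with 5 of 10 called higher. Mast cell and basophil markers ran from 82.45 to 166.9 CPM in KO naive and from 34.0 to 67.5 CPM in WT naive, with 4 of 11 called higher. NK cell markers ran from 83.9 to 107.4 CPM in KO naive and from 48.95 to 66.85 CPM in WT naive, with 2 of 5 called higher. Mitochondrial genes were lower, from 14890 to 15190 CPM in KO naive and from 18070 to 19770 CPM in WT naive, with 4 of 6 tested genes called lower. The part of these in the members' values was not tested.

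Th1 cultures showed the broadest loss. In KO Th1 cultures 9 of 10 members were called lower than in WT Th1 cultures and none higher, where 25.8% and 24.8% of all tested genes were called lower and higher. The members' median log2 fold change was -2.02, and that of all tested genes 0.01. Bach2 had 14.1 and 20.1 CPM in KO Th1, against 265 and 274 CPM in WT Th1 (-3.98 ± 0.20, adjusted p = 8.70e-10). Klf2 had 4.72 and 9.98 CPM in KO Th1, against 99.3 and 88.7 CPM in WT Th1 (-3.68 ± 0.27, adjusted p = 1.03e-07). For both genes, each KO library lay far below each WT library. Tcf7 had 64.4 and 94.3 CPM in KO Th1, against 679 and 623 CPM in WT Th1 (-3.04 ± 0.34, adjusted p = 6.92e-06).

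Klf3, which had not passed the test in naive cells, was low in KO Th1 like Tcf7. Klf3 had 2.94 and 5.72 CPM in KO Th1, against 24.1 and 26.4 CPM in WT Th1 (-2.55 ± 0.27, adjusted p = 2.47e-06). Foxp1 had 29.2 and 26.2 CPM in KO Th1, against 161 and 163 CPM in WT Th1 (-2.55 ± 0.15, adjusted p = 1.45e-09). The groups lay wide apart for both genes. Lef1 had 70.9 and 67.9 CPM in KO Th1, against 197 and 194 CPM in WT Th1 (-1.49 ± 0.08, adjusted p = 6.65e-10). Satb1 had 690.1 and 679.6 CPM in KO Th1, against 1948 and 1793 CPM in WT Th1 (-1.45 ± 0.13, adjusted p = 2.33e-07). Foxo1 (-1.39 ± 0.09, adjusted p = 4.62e-09) and Ets1 (-1.25 ± 0.09, adjusted p = 1.30e-08) were lower by less.

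Myb was the exception, with 144 and 143 CPM in KO Th1, against 119.7 and 129 CPM in WT Th1 (0.20, 95% interval -0.03 to 0.43, adjusted p = 0.128). Its libraries did not overlap, but the difference did not pass the test. It passed in the libraries of the contrast alone (0.21, adjusted p = 0.0115). Mast cell and basophil markers moved with these groups. Their sum ran from 1035 to 2380 CPM in KO Th1 and from 153 to 201 CPM in WT Th1, all 11 genes being called higher and none at 0. Summed T cell markers ran from 5076 to 5141 CPM in KO Th1 and from 8398 to 8545 CPM in WT Th1. Myeloid and dendritic markers ran from 100.2 to 140.1 CPM in KO Th1 and from 35.5 to 38.6 CPM in WT Th1, with 6 of 11 called higher and none lower. NK cell markers overlapped, at 28.9 to 46.8 CPM in KO Th1 and 31.7 to 39.1 CPM in WT Th1, although 3 of 5 were called higher and 1 lower. Mitochondrial genes ran from 8966 to 10750 CPM in KO Th1 and from 12110 to 12180 CPM in WT Th1, with 4 of 6 called lower and 1 higher. Their part in the members' values was not tested.

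**Figure D3:**
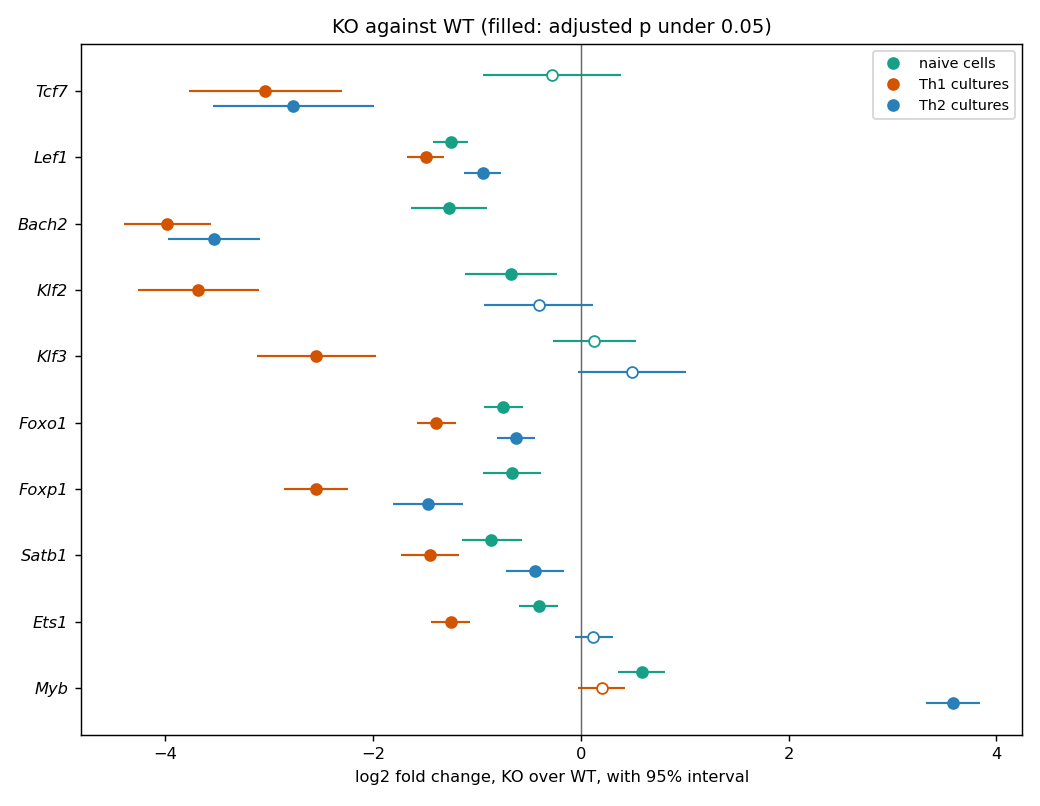
Log2 fold change of KO over WT in naive cells, Th1 cultures and Th2 cultures with 95% intervals, filled where the adjusted p was under 0.05. Bach2 was left of 0 in all 3 states, Klf2 and Klf3 lay at -3.68 and -2.55 in Th1, and Myb in Th2 lay furthest right at 3.58.

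In Th2 cultures the members split. In KO Th2 cultures 6 were called lower than in WT Th2 cultures and 1 higher, where 26.9% and 26.5% of all tested genes were called lower and higher. The members' median log2 fold change was -0.53, and that of all tested genes -0.01. Bach2 had 10.7 and 13.5 CPM in KO Th2, against 140.3 and 137 CPM in WT Th2 (-3.53 ± 0.21, adjusted p = 2.01e-09). Tcf7 had 12.1 and 42.4 CPM in KO Th2, against 182 and 182 CPM in WT Th2 (-2.77 ± 0.36, adjusted p = 1.82e-05). Both KO libraries lay well below WT for Tcf7, although they were themselves far apart. Foxp1 had 12.4 and 20.5 CPM in KO Th2, against 43.5 and 46.4 CPM in WT Th2 (-1.47 ± 0.16, adjusted p = 1.04e-06).

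Lef1 had 71.5 and 69.1 CPM in KO Th2, against 135 and 136 CPM in WT Th2 (-0.94 ± 0.08, adjusted p = 6.12e-08). Foxo1 had 146 and 151 CPM in KO Th2, against 244 and 213 CPM in WT Th2 (-0.62 ± 0.09, adjusted p = 1.69e-05). Satb1 had 1096 and 867 CPM in KO Th2, against 1389 and 1276 CPM in WT Th2 (-0.44 ± 0.13, adjusted p = 0.00958). No KO library of these 3 genes reached a WT one, but the Satb1 call was lost without KO Th2 replicate 2 (-0.28, adjusted p = 0.121) or WT Th2 replicate 1 (-0.35, adjusted p = 0.0939). Klf2 (-0.40, 95% interval -0.93 to 0.12), Klf3 (0.49, -0.03 to 1.01) and Ets1 (0.12, -0.06 to 0.31) did not pass the test. In the libraries of the contrast alone Klf3 passed, higher in KO (0.51, adjusted p = 0.0263).

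Myb rose in KO Th2 by far more than any other member in any state. It had 388 and 407.5 CPM in KO Th2, against 30.2 and 36.4 CPM in WT Th2, a fold of 12 (log2 fold change 3.58 ± 0.12, adjusted p = 1.14e-12). KO Th2 held the highest Myb group mean of the study and WT Th2 the lowest. Myeloid and dendritic markers summed to 167 to 264 CPM in KO Th2 and 40.2 to 45.1 CPM in WT Th2. Of their 11 tested genes, 5 were called higher and 1 lower. Cd8a and Cd8b1, the markers of CD8 T cells, summed to 129.6 to 267 CPM in KO Th2 and 13.1 to 16.2 CPM in WT Th2, both being called higher. Mast cell and basophil markers differed less, with 1 of 11 genes called higher, at 103 to 166 CPM in KO Th2 and 91.1 to 97.0 CPM in WT Th2. Summed T cell markers were 5529 to 6275 CPM in KO Th2 and 5351 to 5656 CPM in WT Th2. Of these 13 genes, 7 were called lower and 4 higher (median log2 fold change -0.45), beside 26.9% and 26.5% of all tested genes. Endothelial and stromal markers summed to 343 to 428 CPM in KO Th2 and 148 to 172 CPM in WT Th2. Only 1 of their 3 tested genes was called higher and none lower, with a list median log2 fold change of 0.13. Col3a1 and Cdh5 had no counts in either group. NK cell markers summed to 37.6 to 62.7 CPM in KO Th2 and 16.6 to 20.3 CPM in WT Th2. Of the 5 NK genes, only Eomes was called higher (43.9 CPM in KO Th2, 9.75 CPM in WT Th2) and none lower. The median log2 fold change of the NK list was -1. The part of all these markers in the Myb value was not tested.

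Tested directly, the KO effect differed between states for most members. Between Th1 and naive cells it differed for 8 of 10, where 27.5% of all tested genes differed. All 8 had the lower value in Th1, from -0.59 ± 0.19 for Satb1 to -3.01 ± 0.34 for Klf2 on the log2 scale. Lef1 (-0.24, 95% interval -0.48 to -0.01, adjusted p = 0.119) and Myb (-0.38, adjusted p = 0.0718) did not pass. Between Th2 and naive cells 6 of 10 differed, where 35.7% of all tested genes differed. Tcf7 (-2.49 ± 0.47), Bach2 (-2.26 ± 0.27) and Foxp1 (-0.81 ± 0.21) were lower in that contrast, and Myb (3.0 ± 0.16), Ets1 (0.53 ± 0.12) and Lef1 (0.31 ± 0.11) were higher. Satb1 did not pass (0.42, adjusted p = 0.0940), and did so with the replicate block (0.41, adjusted p = 0.0479). In Th1 against naive, Satb1 was near the threshold (adjusted p = 0.0256) and lost its call without any 1 of 5 libraries, with an adjusted p of up to 0.0916. In Th2 against naive, Lef1 (adjusted p = 0.0428) lost it without any 1 of 6 libraries, up to 0.202.

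Between Th1 and Th2 the KO effect differed for 8 of 10, a share to read against 46.2% of all tested genes. The KLF genes and Myb differed most, at -3.28 ± 0.37 for Klf2, -3.04 ± 0.37 for Klf3 and -3.38 ± 0.16 for Myb on the log2 scale. Ets1 (-1.38 ± 0.12), Foxp1 (-1.08 ± 0.22), Satb1 (-1.01 ± 0.19), Foxo1 (-0.77 ± 0.13) and Lef1 (-0.55 ± 0.11) followed. Bach2 (-0.45, 95% interval -1.05 to 0.14) and Tcf7 (-0.27, -1.29 to 0.75) did not pass. For Tcf7 the sign rested on 1 library, since the difference was 0.88 without KO Th2 replicate 2 and -0.94 without KO Th2 replicate 1 (adjusted p = 0.0187 and 0.00619). Without KO Th1 replicate 2, Bach2 passed at -0.76 (adjusted p = 0.0457).

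In WT Th1 cultures, 1 µM SGC0946 left no member called against 1 µM SGC0649 in edgeR, where 0.467% of all tested genes were called (61 genes, and 136 with the replicate number as a block). At an unadjusted p under 0.05 there were 2, a threshold at which the share of all tested genes was not computed. DESeq2 called 1 (Lef1), and limma voom called none. A fit on the libraries of the contrast alone called 3, Lef1, Bach2 and Foxp1. Foxp1 had 109.9 and 106 CPM with SGC0946, against 146 and 154 CPM with SGC0649 (-0.47, 95% interval -0.75 to -0.19, adjusted p = 0.154). Lef1 had 153 and 152 CPM with SGC0946, against 190.1 and 188 CPM with SGC0649 (-0.31, interval -0.47 to -0.14, adjusted p = 0.104). Bach2 had 185 and 201 CPM with SGC0946, against 245 and 241 CPM with SGC0649. The groups did not overlap for 8 of 10 members, so separation does not set these 3 genes apart. The share of all tested genes without overlap was not computed. Tcf7 (-0.16, -0.83 to 0.51), Klf2 (-0.08, -0.55 to 0.39) and Myb (-0.08, -0.31 to 0.15) lay close to 0 with intervals that do not show equality.

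In WT Th2 cultures SGC0946 raised 3 members and lowered 2 against SGC0649, where 5.45% and 2.51% of all tested genes were called higher and lower. Myb had 147 and 136 CPM with SGC0946, against 47.5 and 62.8 CPM with SGC0649 (1.36 ± 0.11, adjusted p = 1.46e-05). Both SGC0946 libraries lay well above both SGC0649 libraries. Klf2 had 51.7 and 42.5 CPM with SGC0946, against 27.7 and 23.4 CPM with SGC0649 (0.88 ± 0.24, adjusted p = 0.0387). Foxo1 had 269 and 241 CPM with SGC0946, against 206 and 185 CPM with SGC0649 (0.38 ± 0.09, adjusted p = 0.0141). Lower with SGC0946 were Lef1, at 110.2 and 98.2 CPM, against 137 and 129 CPM with SGC0649 (-0.35 ± 0.08, adjusted p = 0.0129), and Bach2 (-0.60 ± 0.17, adjusted p = 0.0481). Bach2 had 79.8 and 56.9 CPM with SGC0946, against 121 and 86.1 CPM with SGC0649.

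Of these Th2 calls, Myb kept its call without each of the 4 libraries in turn, and the other 4 genes did not. Klf2 lost its call without any 1 of the 4 (adjusted p up to 0.243). Foxo1 lost it without SGC0649 replicate 2 or SGC0946 replicate 1 (0.113 and 0.150), Bach2 without SGC0649 replicate 1 or SGC0946 replicate 2 (0.198 and 0.251), and Lef1 without SGC0946 replicate 2 (0.100). A fit on these 4 libraries alone called none of the 5, nor any other gene (Myb 1.33, adjusted p = 0.0777). The SGC0649 libraries of Th2 were the least alike of all replicate pairs, with an SD of the log2 difference between replicates of 0.342. That difference went with the one between the SGC0946 libraries of Th2 (r = 0.700 for same-numbered libraries). The fits above used no pairing, so a lost call does not show that same-numbered libraries disagreed. With the replicate number as a block, all 5 genes kept their calls. Tcf7 (-0.59, 95% interval -1.28 to 0.10), Foxp1 (-0.41, -0.73 to -0.08), Klf3 (-0.28, -0.81 to 0.26), Satb1 (0.15, -0.12 to 0.43) and Ets1 (0.27, 0.08 to 0.45) did not pass after adjustment.

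The control compound was set against no compound. In Th1 no member was called with SGC0649 in edgeR, DESeq2 or limma voom, none had an unadjusted p under 0.05, and 0.0153% of all tested genes were called. In Th2 Myb alone was called, with 47.5 and 62.8 CPM with SGC0649, against 30.2 and 36.4 CPM without compound (0.73 ± 0.12, adjusted p = 0.0170), beside 0.673% of all tested genes (88 genes, and 523 with the replicate block). That call was lost without WT Th2 replicate 1 (0.61, adjusted p = 0.378) or SGC0649 replicate 2 (0.51, adjusted p = 0.196). In all, 3 members had an unadjusted p under 0.05, the others being Bach2 (-0.42 ± 0.17, adjusted p = 0.173) and Foxo1 (-0.23 ± 0.09, adjusted p = 0.161). The share of all tested genes at that unadjusted threshold was not computed, so this count is not a finding about the members. Klf2 stood at -0.50 (95% interval -1.03 to 0.02). The groups did not overlap for 6 of 10 members. Both SGC0649 libraries lay below both libraries without compound for Bach2, Foxo1, Klf2 and Foxp1, and above for Ets1 and Myb. The share of all tested genes without overlap was not computed, so the separation is a description only. Foxo1 with SGC0946 in Th2, at 269 and 241 CPM, overlapped the 244 and 213 CPM without compound. Mast cell and basophil markers in Th2 summed to 91.1 to 97.0 CPM without compound and 180.3 to 231 CPM with SGC0649. With SGC0946 they summed to 262.9 to 276.1 CPM. None of these 11 genes was called for SGC0649 against no compound or for SGC0946 against SGC0649. Their part in the Myb values was not tested.

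**Figure D4:**
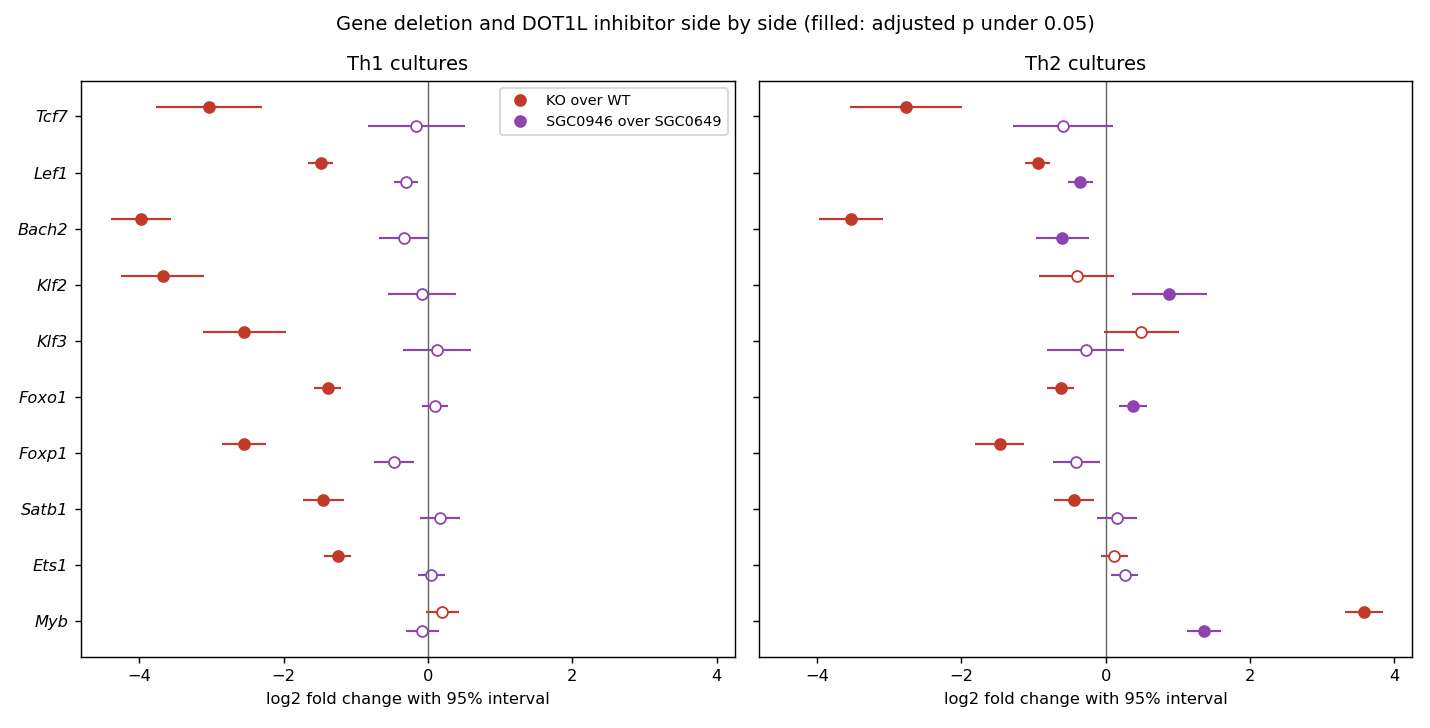
Log2 fold change of KO over WT and of SGC0946 over SGC0649 in Th1 and Th2 cultures with 95% intervals, filled where the adjusted p was under 0.05. Inhibitor values stayed between -0.60 and 1.36, and Myb was the member furthest right for both perturbations in Th2.

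The KO and inhibitor effects come from separate libraries, and their difference was tested. In Th1 the KO effect was lower than the inhibitor effect for 9 of 10 members, where 30.7% of all tested genes differed, from -1.19 ± 0.11 for Lef1 to -3.65 ± 0.25 for Bach2. Myb did not pass (0.28, 95% interval -0.04 to 0.61, adjusted p = 0.174). In Th2 8 of 10 differed, where 32% of all tested genes differed. The KO effect was below the inhibitor effect for Bach2 (-2.93 ± 0.27), Tcf7 (-2.18 ± 0.48) and Klf2 (-1.29 ± 0.34). It was also below for Foxp1 (-1.06 ± 0.22), Foxo1 (-1.01 ± 0.13), Lef1 (-0.59 ± 0.11) and Satb1 (-0.59 ± 0.19). For Myb the KO effect was above the inhibitor effect by 2.22 ± 0.16 (adjusted p = 5.67e-08). Klf2 itself did not pass in KO against WT Th2 (-0.40) and was called higher with SGC0946 (0.88). Foxo1 was lower in KO Th2 and higher with SGC0946 in Th2. Klf3 (0.77, adjusted p = 0.109) and Ets1 (-0.14, adjusted p = 0.412) did not pass. Klf2 lost its call without WT Th2 replicate 2 or WT Th2 SGC0649 replicate 2 (adjusted p = 0.0539 and 0.0547), and Satb1 without any 1 of 4 libraries (up to 0.155). Klf3 passed without WT Th2 SGC0649 replicate 2 (1.19, adjusted p = 0.0017).

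The inhibitor effect itself differed between Th1 and Th2 for 1 member, Myb (-1.44 ± 0.16, adjusted p = 0.000921), where 0.52% of all tested genes differed. Myb thus had -0.08 in Th1 and 1.36 in Th2 with SGC0946, beside 0.20 and 3.58 in KO.

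Genes that lie downstream of these factors were read from lists. Of 9 known targets of KLF2 and FOXO1, 6 were called lower in KO naive than in WT naive cells and none higher, with a list median of -0.70, beside 12.4% and 16% of all tested genes. Ccr7, the lymph node homing receptor, had 402 ± 99.1 CPM in KO naive, against 982 ± 104 CPM in WT naive (SD, n = 2; log2 fold change -1.29 ± 0.15, adjusted p = 1.97e-05). Cdkn1b, which encodes the cell cycle inhibitor p27, had 322 ± 15.2 CPM in KO naive, against 504 ± 4.04 CPM in WT naive (SD, n = 2; -0.65 ± 0.11, adjusted p = 0.000558). In Th1 6 of the 9 were lower in KO and 1 higher (median -1.22), beside 25.8% and 24.8% of all tested genes. In Th2 5 were lower and 3 higher (median -0.30), beside 26.9% and 26.5%, so the higher count there was near that of all genes. Il6ra, the IL-6 receptor chain, had 1.39 ± 0.541 CPM in KO Th1, against 64.3 ± 2.90 CPM in WT Th1 (SD, n = 2), the lowest fold of the list (-5.53 ± 0.20, adjusted p = 7.27e-12). Itgb7, an integrin chain of gut homing, was higher in KO Th2 (1.85 ± 0.14, adjusted p = 1.15e-08).

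Of 12 quiescence genes, 4, 9 and 5 were called lower in KO naive cells, Th1 and Th2 cultures, and 0, 0 and 3 higher, with medians of -0.30, -0.99 and -0.31. All tested genes were called lower at 12.4%, 25.8% and 26.9% and higher at 16%, 24.8% and 26.5% in these comparisons, and the 3 of 12 higher in Th2 were near that share. Btg2, an anti-proliferative gene, was higher in KO Th2, at 376 ± 98.8 CPM in KO and 129 ± 10.2 CPM in WT (SD, n = 2; 1.54 ± 0.17, adjusted p = 2.44e-06). Of 8 tested TLE partners and Wnt readouts, 3, 3 and 2 were higher and 0, 5 and 0 lower, the 2 of 8 in Th2 being near the 26.5% of all tested genes called higher. In Th1, the co-repressor gene Tle1 was higher (1.35 ± 0.19, adjusted p = 2.02e-05) and Tle4 lower (-1.16 ± 0.17, adjusted p = 3.17e-05). The medians over all tested genes were 0.01, 0.01 and -0.01 in these comparisons. Dapl1, a quiescence gene called lower in KO Th2, had no counts in either KO Th2 library. In WT Th2 it was also low, at 0.949 ± 0.465 CPM (SD, n = 2). Relative to that WT mean it was at least 6.55-fold lower, taking 3 counts over both KO libraries as the floor. This bound leaves out the spread of the WT libraries. The list median in Th2 was -0.31 with Dapl1 at this bound as well.

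Of 14 effector factors, 11 were called higher in KO naive than in WT naive cells and 1 lower (median 0.91), beside 16% and 12.4% of all tested genes. Bhlhe40, a factor of activated T cells, had 610 ± 10.5 CPM in KO naive, against 238 ± 7.74 CPM in WT naive (SD, n = 2; 1.36 ± 0.11, adjusted p = 7.96e-07). In Th1 4 were higher and 7 lower in KO (median -0.27), beside 24.8% and 25.8% of all tested genes, the higher count being near that share. Gata3, the Th2 factor, was lower in KO Th1 (-1.70 ± 0.16, adjusted p = 4.18e-07). In Th2 9 were higher and 4 lower (median 0.60), beside 26.5% and 26.9% of all tested genes, among them Eomes, a factor of cytotoxic and memory cells (2.17 ± 0.25, adjusted p = 2.97e-06), and Irf4, induced by receptor signals (-1.74 ± 0.20, adjusted p = 3.58e-06). With SGC0946 in Th2, Prdm1, encoding BLIMP1, was higher at 152 ± 8.26 CPM with SGC0946, against 66.6 ± 6.01 CPM with SGC0649 (SD, n = 2; 1.19 ± 0.12, adjusted p = 1.86e-05). S1pr1, a KLF2 target for tissue exit, was higher there too (0.95 ± 0.10, adjusted p = 5.13e-05). As for Myb, both lost the call in the 4 libraries alone (adjusted p = 0.0617 and 0.0834).

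Relatives of the members did not share one direction. Of 27 tested paralogs from the TCF, BACH, KLF, FOXO, FOXP, SATB, ETS and MYB families, 7, 13 and 10 were lower in KO naive cells, Th1 and Th2 cultures and 3, 5 and 10 higher. All tested genes were called lower at 12.4%, 25.8% and 26.9% and higher at 16%, 24.8% and 26.5%, so the higher counts in naive cells and Th1 were below the share of all genes. The paralogs' medians were 0.00, -0.33 and 0.02. Foxp3, the regulatory T cell factor, had the lowest called value in all 3, at -0.86 ± 0.15, -4.23 ± 0.24 and -2.59 ± 0.24 (adjusted p = 0.000471, 8.70e-10 and 1.36e-07). Mybl1, a relative of Myb, was higher in KO naive cells at a low level, 2.58 ± 0.979 CPM in KO and 0.658 ± 0.0414 CPM in WT (SD, n = 2; 1.95 ± 0.38, adjusted p = 0.00128).

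**Figure D5:**
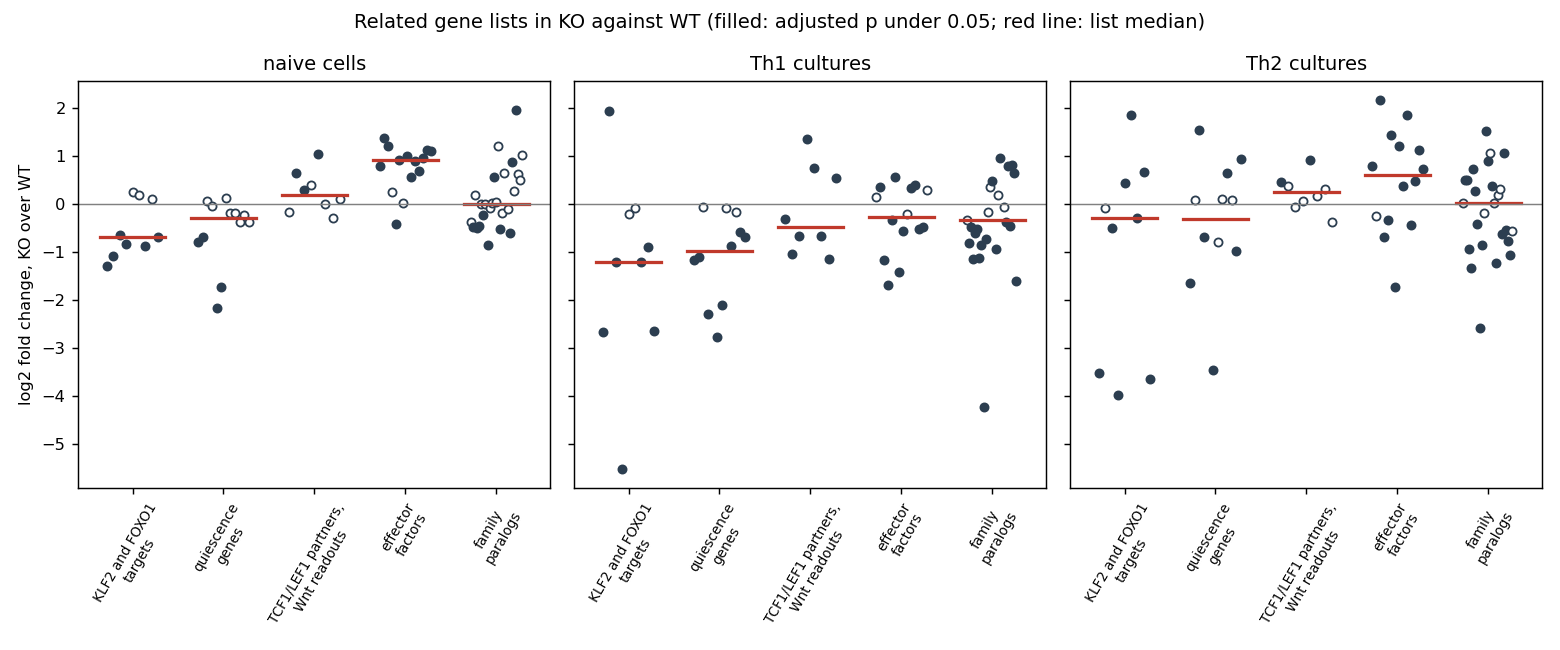
Log2 fold change of KO over WT for each gene of the 5 lists, filled where the adjusted p was under 0.05, with the median over all tested genes of the list as a red line. The 10 points of genes with a group mean under 0.5 CPM are not drawn, and effector factors lay mostly above 0 in naive cells, where KLF2 and FOXO1 targets lay mostly below.

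Across the 10 group means of log2 CPM, members fell into loose patterns, given here as a description, since groups share culture conditions and scaling. Tcf7 and Foxp1 were the most alike pair (Pearson r = 0.978), followed by Klf2 with Klf3 (0.973) and Klf2 with Foxo1 (0.948). Myb ran against Bach2 (-0.476) and Satb1 (-0.403). Among 9090 genes of sufficient level, the pattern most like that of Bach2 was Cd5 (r = 0.990), a brake on receptor signals. Asap1 was most like Foxp1 (0.997), Arl5c most like Klf2 (0.994), Rasa1 most like Tcf7 (0.990) and Dmtf1 most like Klf3 (0.989). Sh2d2a was most like Foxo1 (0.988), Cdip1 most like Lef1 (0.984), F2rl1 most like Ets1 (0.967), Aplp2 most like Myb (0.966) and Cd2 most like Satb1 (0.964).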

How the data were processed

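For 20 libraries of mouse CD4+ T cells the authors deposited read counts by gene. Per the file headers, featureCounts 1.5.3 assigned reads by strand (setting 2) to the annotation of Ensembl 84 for GRCm38. Deposited gene lengths in bases, per the file headers, a column of another kind, served only for CPM per kilobase. Per the submitters' processing notes edgeR and limma were also used, and no aligner is given in the sources used here.

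The 10 genes and the lists were chosen with earlier results of these data known. Protein-coding counts were scaled by TMM (factors 0.878 to 1.08) and filtered with filterByExpr, leaving 13072 genes. A single robust quasi-likelihood fit in edgeR 4.0.16 (R 4.3.3) took all 20 libraries, with a mean for each group and a common biological coefficient of variation of 0.0963. Each of 16 contrasts had an F test. Benjamini-Hochberg adjustment ran over all tested genes, and genes were called at an adjusted p under 0.05 with no fold threshold. CPM are TMM-scaled, the SE is the size of the log2 fold change over the root of F, and intervals are at 95%. The test was checked on simulated counts.

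Named were the 10 members whatever their result and, from each list, the called genes with the highest and lowest fold at an average log2 CPM of at least 1. Some list genes are not reported here. Alternatives were RLE scaling, no filter, DESeq2 1.42.0, limma 3.58.1 voom, the libraries of a contrast alone, the table with genes outside the protein-coding class, a replicate block, and leaving out libraries singly. Deviations of same-numbered libraries correlated at 0.192 to 0.700 over 15 pairs of WT cultures and 0.133 to 0.283 over 3 pairs of KO and WT in one condition. The 27 other pairs ran from -0.11 to 0.264, which overlaps the range of KO with WT, so pairing of KO with WT was not established. The labels do not say what the replicate number marks. The main fit used no pairing, and the number entered only in the replicate block. Columns of the SGC0946 libraries carry number 1 where titles have 1 and 2 and were matched by their own S number. Promoter windows came from RefSeq on GRCm38.p6.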

Additional observations from a re-analysis of the deposited data

Results flagged for a closer look

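The effect of Dot1l deletion differed between cell states for many of the 10 genes, each by an interaction test in edgeR at an adjusted p under 0.05. Values are differences of 2 log2 fold changes of KO over WT. Th1 minus naive gave -2.76 for Tcf7, -2.72 for Bach2, -3.01 for Klf2 and -2.68 for Klf3. It gave -0.65 for Foxo1, -1.89 for Foxp1, -0.59 for Satb1 and -0.85 for Ets1. Th2 minus naive gave -2.49 for Tcf7, -2.26 for Bach2 and -0.81 for Foxp1, and 0.31 for Lef1, 0.53 for Ets1 and 3.0 for Myb. Th1 minus Th2 gave -0.55 for Lef1, -3.28 for Klf2, -3.04 for Klf3 and -0.77 for Foxo1. It gave -1.08 for Foxp1, -1.01 for Satb1, -1.38 for Ets1 and -3.38 for Myb. These 3 sets of differences share libraries with each other. The effect of SGC0946 over SGC0649 differed between Th1 and Th2 for Myb, at -1.44.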

How the results depend on the processing

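Counts of members called stayed within 1.5 times under every alternative for 13 of the 16 contrasts. The other 3 involve the compounds. For SGC0946 against SGC0649 in Th1, where 0 members were called, DESeq2 called 1 and the libraries of the contrast alone 3, and leaving out each library in turn gave 0. For the same pair in Th2, where 5 were called, no filter gave 3, the libraries of the contrast alone 0, and leaving out each library 3. For SGC0649 against no compound in Th2, where 1 was called, the libraries of the contrast alone gave 0, and leaving out each library gave 0 to 2.

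Directions that turned were those of differences that had not passed the test. Tcf7 in the KO effect of Th1 minus Th2 was 0.01 in limma voom and ran from -0.94 to 0.88 with each library left out. Klf2 in that of Th2 minus naive ran from -0.07 to 0.56. With SGC0946 in Th1, leaving out libraries gave -0.15 to 0.00 for Klf2, -0.01 to 0.10 for Ets1 and -0.09 to 0.03 for Dot1l. With SGC0946 in Th2 it gave -0.68 to 0.27 for Klf3 and -0.03 to 0.34 for Satb1. The cause was not tested. The replicate block changed 1 member call, Satb1 in the KO effect of Th2 minus naive (0.41, adjusted p = 0.0479), and no other. The libraries of the contrast alone also called Bach2 higher in WT Th1 than in WT naive (0.27, adjusted p = 0.000243), and called Myb in the KO effect of Th1 minus naive (-0.39, adjusted p = 0.00831) and in that of KO minus SGC0946 in Th1 (0.29, adjusted p = 0.0212).

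Counts over all genes moved most for the compounds. For SGC0946 in Th1 the 61 genes became 100 with no filter, 136 with the replicate block, 138 in DESeq2, 561 in the libraries of the contrast alone and 3 to 6 with a library left out. For SGC0946 in Th2 the 1040 genes became 0 in the libraries alone and 330 to 1966 with one left out. For SGC0649 in Th1 the 2 genes became 190 in the libraries alone, 19 in DESeq2, 4 with no filter and 1 in limma voom, and in Th2 the 88 genes became 523 with the replicate block, 535 in DESeq2, 207 with no filter, 148 in limma voom, 0 in the libraries alone and 2 to 2402 with one left out. For the difference of SGC0946 effects the 68 genes became 140 in DESeq2, 12 in the libraries alone and 10 to 256 with one left out. KO minus SGC0946 in Th1 went to 2627 genes without SGC0946 replicate 1, against 4012, and in Th2 to 2636 in the libraries alone, against 4179. For KO in naive cells the 3708 genes became 1571 without KO naive replicate 1 and 1844 and 2233 without WT naive replicate 2 and 1. With 2 libraries per group, no rule for stray libraries could be applied, and no smallest detectable difference was computed.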
